A study of Arabidopsis thaliana with 19 samples.

Results

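The xyloglucan endotransglucosylase/hydrolase (*XTH*) family of *Arabidopsis thaliana* was followed in dormant seeds of 5 genotypes. Its members were taken by AGI code, the gene identifier of the deposited table, from *XTH1* to *XTH33*, and all 33 had a row among 21313 genes. The seeds came from 4 near isogenic lines (NILs) and their common background, the accession Landsberg *erecta* (L*er*). Each NIL is named for 1 DELAY OF GERMINATION (*DOG*) locus, where it carries DNA of another accession in L*er*: NIL*DOG1* and NIL*DOG3* a region of Cvi, NIL*DOG6* a region of Kas-2 and NIL*DOG2* a region of Cvi. The text of the study does not say whether a line holds more than 1 introgressed region. NIL*DOG1*, NIL*DOG3* and NIL*DOG6* are described by the study as more dormant than L*er*, and NIL*DOG2* as less dormant, so the genotypes ask how the family stands in seeds of unequal dormancy. All seeds were imbibed in water for 24 h, were labelled dormant, and came from bulked plants. There were 5 arrays of NIL*DOG1*, 3 each of NIL*DOG3*, NIL*DOG6* and NIL*DOG2*, and 5 of L*er*, which serve as the controls. The growth text gives 3 replicates a genotype, so the origin of replicates 4 and 5 of NIL*DOG1* and L*er* is not stated. The plants stood in randomized blocks, and no source used here ties an array's number to a block. Each line carries at least a whole introgressed region and not a single gene, and each genotype is 1 line.

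XTH enzymes act in the plant cell wall on xyloglucan, the hemicellulose that coats and tethers cellulose microfibrils. As endotransglucosylases they cut a xyloglucan chain and join the new end to another chain, and as hydrolases they cut it for good, so the wall can be loosened or rebuilt while a cell expands. Elongation of the embryo and weakening of the endosperm around the root tip both go with wall remodelling in a germinating seed. By sequence the family falls into group I, with 11 members here (*XTH1* to *XTH11*), group II with 15 (*XTH12* to *XTH26*) and group III with 7 (*XTH27* to *XTH33*), and the hydrolases *XTH31* and *XTH32* belong to group III.

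Values are log2 intensities after robust multi-array averaging (RMA), so that a difference of 1 is a doubling, and they are set against other genes only as array signal. The median signal of an array lay between 4.63 and 4.92 and its lower quartile between 3.11 and 3.27. Seed storage and oil body genes (9 of 9 listed, among them the cruciferin *CRA1*) averaged 12.8 to 13.3 in the 19 arrays, and 4 photosynthesis genes of green seedlings averaged 3.88 to 4.37. The other 3 of the 7 listed photosynthesis genes had no row, and *RCA*, *LHCA1* and *LHCB3* were above the array median in 4, 2 and 1 arrays. In each array the seed genes averaged well above the array median and the photosynthesis genes below it. A pair of these seed genes, *SESA2* and *SESA4*, was higher in NIL*DOG2* than in L*er*, by 1.14 and 1.58 on the log2 scale. NIL*DOG6* replicate 1 was unlike replicates 2 and 3 of its line. Across all genes it correlated at 0.980 with replicate 2 and at 0.978 with replicate 3, whereas its median correlation with arrays of L*er* was 0.988. Replicates 2 and 3 correlated at 0.988 with each other, and their medians with L*er* were 0.978 and 0.976. L*er* replicates 2 and 4 also correlated at only 0.978. Which NIL*DOG6* arrays depart from the line was not tested. Comparisons with NIL*DOG6* are given with and without replicate 1. Leaving it out removes the NIL*DOG6* array nearest to L*er*, so larger differences from L*er* are to be foreseen without it. NIL*DOG1* replicate 4 was set apart in the *XTH* genes below. The labels call the arrays replicates of bulked seed, and p-values measure the spread between these samples only.

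Most of the family gave a low and even signal. In 20 members the value was below the array median in every array, and *XTH10*, *XTH17*, *XTH21* and *XTH29* were below the lower quartile in every array. No test of presence was run, so a low value is not read as absence. In 5 members the value was above the median in every array: *XTH25*, *XTH11* and *XTH5*, and the group III genes *XTH28* and *XTH27*. *XTH25* lay between 11.97 and 13.61. The other 8 (*XTH4*, *XTH9*, *XTH15*, *XTH16*, *XTH19*, *XTH22*, *XTH30* and *XTH31*) were above the median in some arrays and below it in others.

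Variation was concentrated in 6 members. *XTH4*, *XTH5*, *XTH9*, *XTH15*, *XTH16* and *XTH19* spanned 2.82 to 5.49 on the log2 scale over the arrays, and the other 27 spanned 0.39 to 1.83. A span above 2, a limit set after the values were seen, was found in 18.2% of the family and in 3.61% of all genes. The 6 come from groups I and II and lie on chromosomes 2, 3, 4 and 5, so they are not 1 cluster of neighbours.

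**Figure D1:**
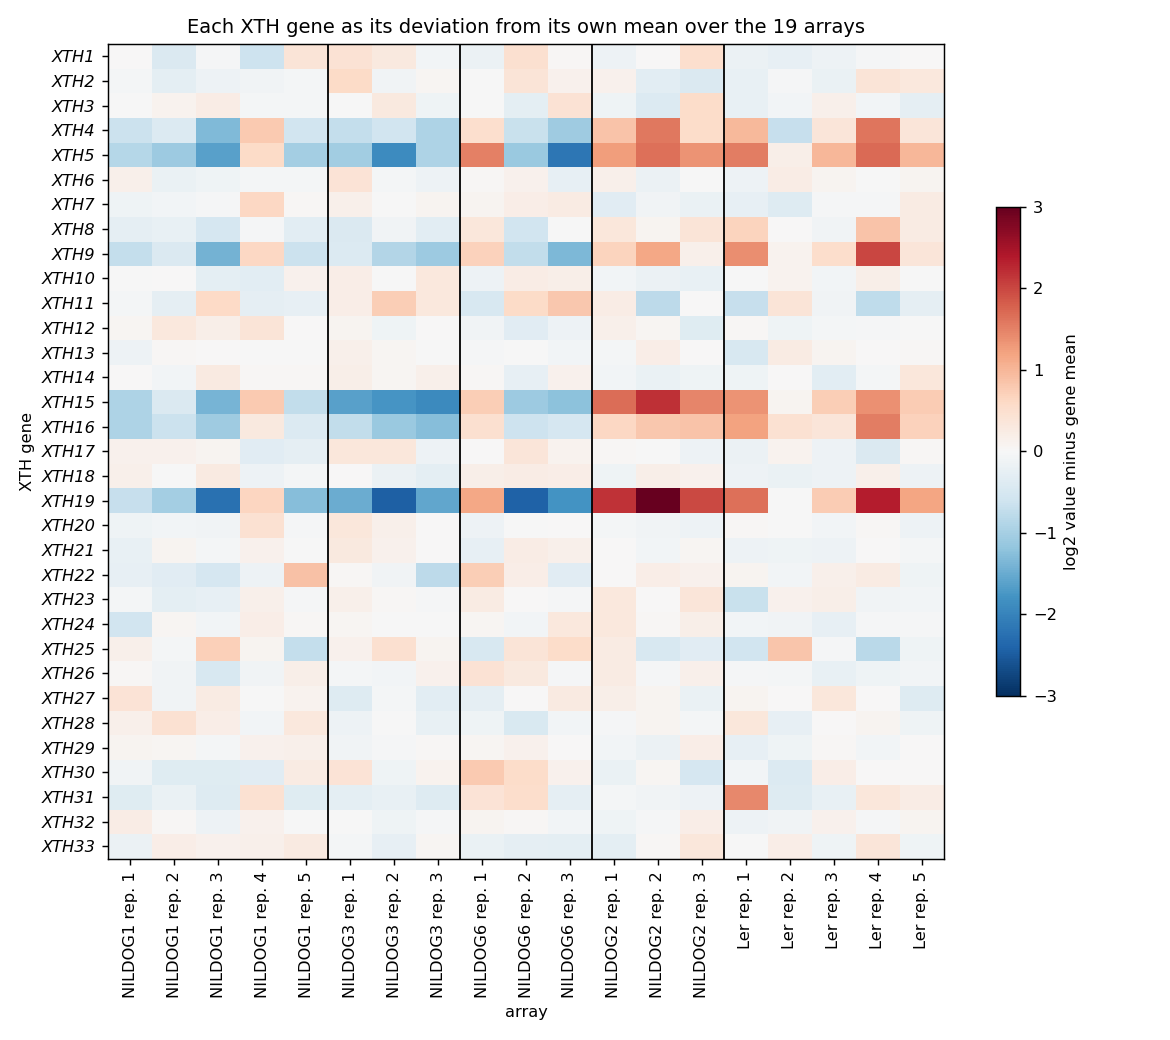
Deviation of each of the 33 *XTH* genes (rows) from its own mean over the 19 arrays (columns, grouped by genotype), in log2 units. *XTH4*, *XTH5*, *XTH9*, *XTH15*, *XTH16* and *XTH19* are blue in most arrays of NIL*DOG1*, NIL*DOG3* and NIL*DOG6* and red in NIL*DOG2* and most L*er* arrays, with NIL*DOG6* replicate 1 and NIL*DOG1* replicate 4 red.

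Over the 5 genotypes 4 members differed by limma's moderated F test, where 6.39% of all genes were called. A gene was called when its p, adjusted by Benjamini and Hochberg's method for every gene of the table, was under 0.05. They were *XTH15* (adjusted p = 0.000524), *XTH16* (adjusted p = 0.0011), *XTH19* (adjusted p = 0.0032) and *XTH5* (adjusted p = 0.0146). Each had its lowest mean in NIL*DOG3*, and lower means in NIL*DOG1* and NIL*DOG6* than in NIL*DOG2* and L*er*. RNA of whole seeds was measured, so fewer cells of a type and less RNA per cell cannot be told apart in any of these differences.

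*XTH15* (AT4G14130), also known as *XTR7* and long used as a marker of shade avoidance in seedlings, gave 5.54, 6.04, 5.07, 7.25 and 5.72 in NIL*DOG1*. It gave 4.85, 4.69 and 4.56 in NIL*DOG3*, 7.21, 5.37 and 5.23 in NIL*DOG6*, 8.15, 8.67 and 7.93 in NIL*DOG2*, and 7.81, 6.55, 7.20, 7.83 and 7.24 in L*er*. All NIL*DOG3* arrays were below all others, and all NIL*DOG2* arrays were above all others. The value of 7.25 in NIL*DOG1* replicate 4 and that of 7.21 in NIL*DOG6* replicate 1 lay within the L*er* range.

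*XTH19* (AT4G30290), one of a set of closely related root-expressed genes with *XTH17*, *XTH18* and *XTH20*, had the widest span of the family. It gave 5.69, 5.36, 4.15, 7.04 and 5.10 in NIL*DOG1*, 4.90, 3.95 and 4.84 in NIL*DOG3*, 7.55, 3.96 and 4.60 in NIL*DOG6*, 8.56, 9.44 and 8.36 in NIL*DOG2*, and 8.04, 6.38, 7.14, 8.75 and 7.56 in L*er*. The NIL*DOG3* arrays were again all below those of L*er*. In RefSeq gene order (TAIR10.1) *XTH19* stands next to *XTH24* and *XTH18* on chromosome 4. Those neighbours gave 2.45 to 3.34 and 2.64 to 3.2 over the arrays and were not called in any comparison, and *XTH17* and *XTH20* were not called either. Whether the probes of these related genes hybridize to each other's RNA was not tested.

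*XTH16* (AT3G23730) gave 3.54, 3.80, 3.40, 4.74 and 4.04 in NIL*DOG1*, 3.72, 3.34 and 3.17 in NIL*DOG3*, 4.93, 3.84 and 3.95 in NIL*DOG6*, 5.07, 5.27 and 5.31 in NIL*DOG2*, and 5.66, 4.92, 4.83, 5.99 and 5.14 in L*er*. Its NIL*DOG1* and NIL*DOG3* arrays were all below its L*er* arrays, and NIL*DOG6* replicate 1 was not. The NIL*DOG3* values lay near the array lower quartiles of 3.11 to 3.27. How well signal this low measures the size of a difference was not tested.

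*XTH5* (AT5G13870), a group I member, gave 6.13, 5.91, 5.37, 7.58 and 5.98 in NIL*DOG1*, 5.95, 5.11 and 6.07 in NIL*DOG3*, 8.50, 5.89 and 4.82 in NIL*DOG6*, 8.24, 8.64 and 8.35 in NIL*DOG2*, and 8.52, 7.17, 7.99, 8.70 and 7.99 in L*er*. NIL*DOG6* covered nearly the whole span of the gene, with replicate 1 close to the highest L*er* arrays.

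**Figure D2:**
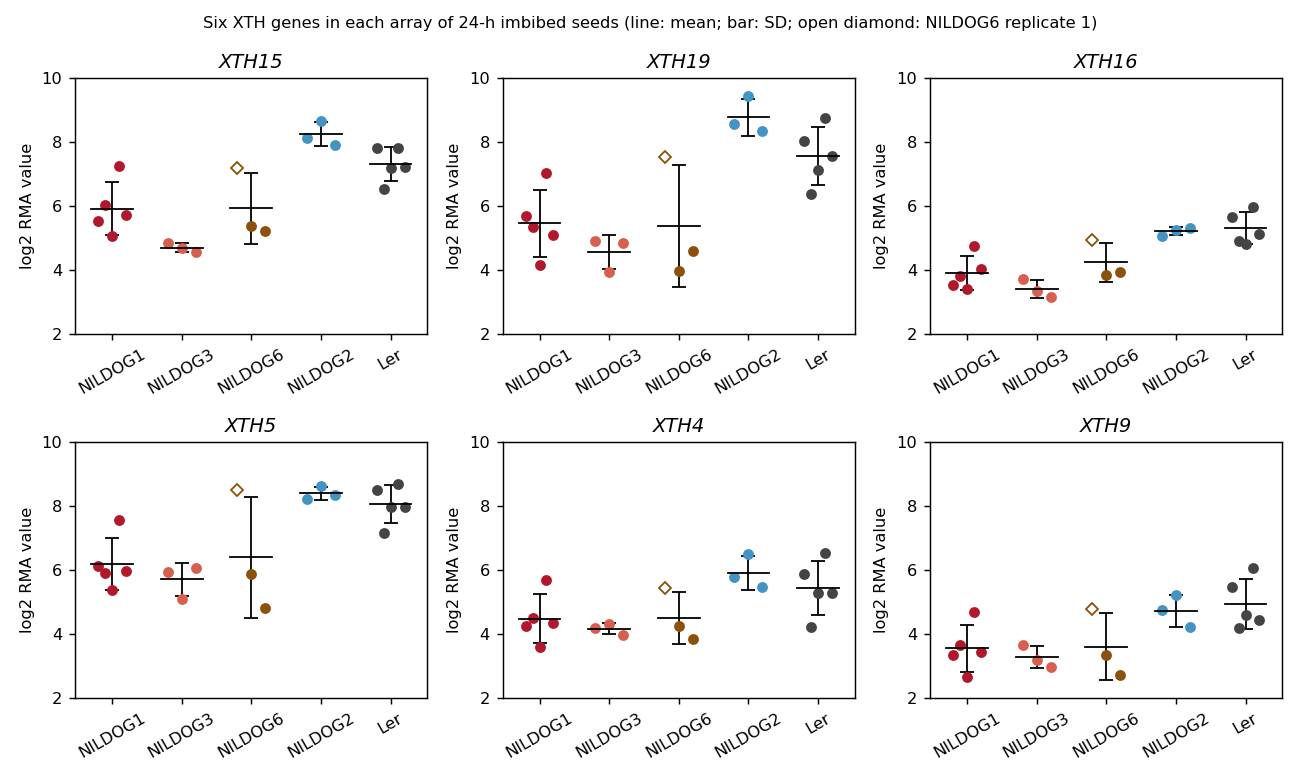
Log2 RMA value of the 6 most variable *XTH* genes in every array (points) by genotype, with the mean (line) and SD (bar) of each genotype; the open diamond is NIL*DOG6* replicate 1. For *XTH15* the NIL*DOG3* arrays lie at 4.56 to 4.85, below all L*er* arrays, whose lowest value is 6.55, and the NIL*DOG2* arrays lie at 7.93 to 8.67.

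The first question was which members differ between each NIL and the background. In NIL*DOG3* 4 of 33 members were lower than in L*er* and 0 were higher, and 2.88% of all genes were called there, 2.2% as lower. *XTH15* averaged 4.70 ± 0.15 in NIL*DOG3* and 7.33 ± 0.52 in L*er* (SD, n = 3 and 5), a log2 difference of -2.63 (SE 0.43, adjusted p = 0.00256 in limma). *XTH16* averaged 3.41 ± 0.28 in NIL*DOG3* and 5.31 ± 0.50 in L*er*, a difference of -1.90 (SE 0.30, adjusted p = 0.00171). *XTH19* was 8.07-fold lower in NIL*DOG3*, a difference of -3.01 (SE 0.67, adjusted p = 0.0184), and *XTH5* was 5.15-fold lower, a difference of -2.36 (SE 0.58, adjusted p = 0.0301). The calls of *XTH15* and *XTH16* held with each array left out in turn. The count fell to 2 without any 1 of the NIL*DOG3* arrays or without L*er* replicate 1, and was 7 without L*er* replicate 2. The share of all genes called in each such fit, here and below, is not given unless stated. *XTH5* lost its call without any 1 of the NIL*DOG3* arrays or L*er* replicate 1, 3 or 4.

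In NIL*DOG1* only *XTH16* passed the test, as lower than in L*er*, where 1.17% of all genes were called and 0.807% as lower. It averaged 3.90 ± 0.53 in NIL*DOG1* and 5.31 ± 0.50 in L*er* (SD, n = 5 each), a difference of -1.41 (SE 0.26, adjusted p = 0.00703 in limma). *XTH15*, *XTH19* and *XTH5* had differences of -1.40, -2.11 and -1.88, with adjusted p-values of 0.080, 0.096 and 0.080 in limma. *XTH4* and *XTH9* had -0.97 and -1.39, with 95% intervals of -1.79 to -0.15 and -2.23 to -0.55 that are not adjusted for the number of genes. The count was 5 without NIL*DOG1* replicate 4, 6 without L*er* replicate 2, 5 without NIL*DOG6* replicate 1 and 2 without NIL*DOG6* replicate 3, the last pair of changes coming through the spread that all arrays share. In the arrays of replicates 1 to 3 alone *XTH16* had a difference of -1.56, and in those of replicates 4 and 5 alone -1.18; *XTH19* had -2.12 and -2.09.

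In NIL*DOG6* 0 members passed the test against L*er* by limma, where 2.36% of all genes were called and 1.4% as lower. An unadjusted limma p under 0.05 was found in 9 members, 27.3% of the family, beside 18.8% of all genes. *XTH19* averaged 5.37 ± 1.91 in NIL*DOG6* and 7.57 ± 0.90 in L*er* (SD, n = 3 and 5), a difference of -2.2 with an interval of -3.60 to -0.81 and an adjusted p of 0.081 in limma. Without NIL*DOG6* replicate 1 the count was 5, all lower, and 8.39% of all genes were called, 5.34% as lower. These were *XTH5* at -2.72 (SE 0.46, adjusted p = 0.0018), *XTH19* at -3.29 (SE 0.59, adjusted p = 0.0025), *XTH15* at -2.03 (SE 0.40, adjusted p = 0.0049), *XTH16* at -1.41 (SE 0.31, adjusted p = 0.0090) and *XTH9* at -1.92 (SE 0.47, adjusted p = 0.0163). Replicate 1 was left out in the knowledge that it was the NIL*DOG6* array nearest to L*er*, and only replicates 2 and 3 remained. Larger differences were thus to be foreseen, and the adjusted p-values of this fit do not allow for that choice. The count with all NIL*DOG6* arrays was 3 without L*er* replicate 2 and 1 without NIL*DOG1* replicate 4.

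In NIL*DOG2* 0 members passed the test against L*er* by limma, where 0.305% of all genes were called and 0.164% as lower. An unadjusted limma p under 0.05 was found in 2 members, 6.06% of the family, beside 6.78% of all genes. *XTH15* averaged 8.25 ± 0.38 in NIL*DOG2* and 7.33 ± 0.52 in L*er* (SD, n = 3 and 5), a difference of 0.92 with an interval of 0.02 to 1.82 and an adjusted p of 0.729. *XTH19* had a difference of 1.21 with an interval of -0.18 to 2.61, and *XTH16* one of -0.09 with an interval of -0.72 to 0.53. These intervals leave room for differences of more than 1 in *XTH15* and *XTH19*.

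**Figure D3:**
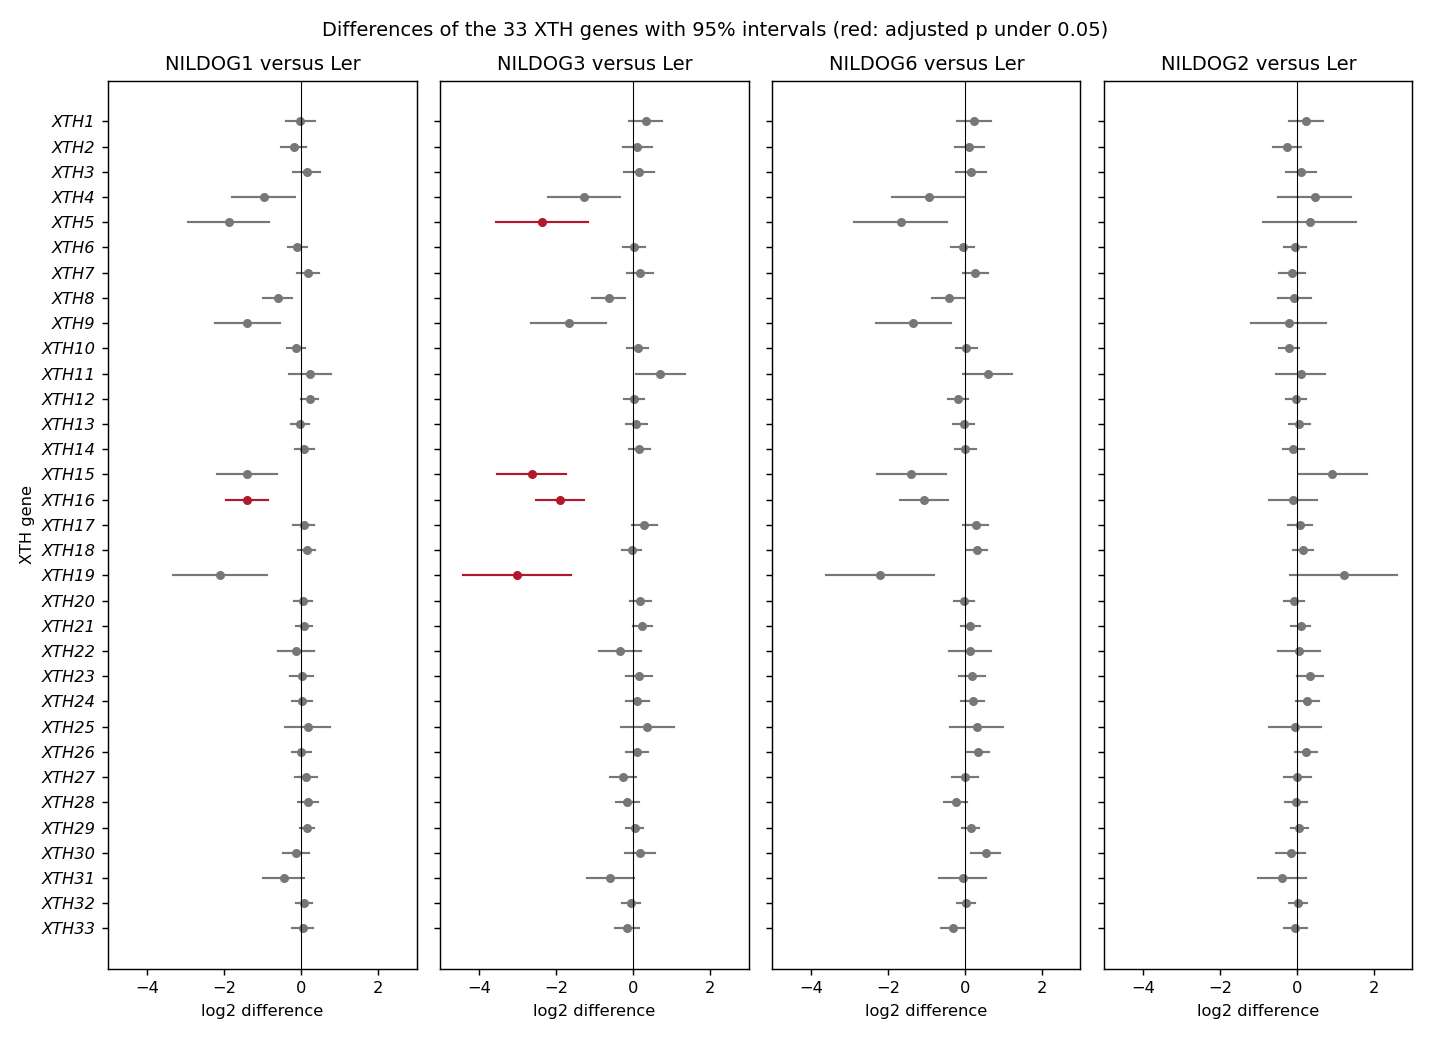
Log2 difference of each of the 33 *XTH* genes between a NIL and L*er* (points) with its 95% interval (lines), 1 panel for each NIL; red marks an adjusted p under 0.05. *XTH16* is red in NIL*DOG1*, *XTH15*, *XTH16*, *XTH19* and *XTH5* are red in NIL*DOG3*, and the 27 members outside the 6 variable genes lie between -0.63 and 0.71.

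The more dormant lines were next set against the less dormant NIL*DOG2*. In NIL*DOG3* the same 4 genes, *XTH15*, *XTH19*, *XTH16* and *XTH5*, were lower than in NIL*DOG2*, where 3.2% of all genes were called and 2.17% as lower. *XTH19* averaged 4.56 ± 0.53 in NIL*DOG3* and 8.79 ± 0.57 in NIL*DOG2* (SD, n = 3 each), a difference of -4.23 (SE 0.75, adjusted p = 0.0033 in limma), or 18.7-fold lower. *XTH15* was 11.7-fold lower, at -3.55 (SE 0.48, adjusted p = 0.000284). *XTH5* had -2.70 (SE 0.64, adjusted p = 0.0235) and *XTH16* -1.80 (SE 0.33, adjusted p = 0.0044). The call of *XTH5* was lost without any 1 array of either line, and those of the other 3 genes were not.

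In NIL*DOG1* 4 members were lower than in NIL*DOG2*, where 2.56% of all genes were called and 1.41% as lower. *XTH19* averaged 5.47 ± 1.05 in NIL*DOG1* and 8.79 ± 0.57 in NIL*DOG2* (SD, n = 5 and 3), a difference of -3.32 (SE 0.67, adjusted p = 0.0087 in limma), or 9.98-fold lower. *XTH15* had -2.33 (SE 0.43, adjusted p = 0.0046), *XTH16* -1.31 (SE 0.30, adjusted p = 0.0204) and *XTH5* -2.22 (SE 0.58, adjusted p = 0.0441). The count was 0 without NIL*DOG2* replicate 2. It was 2 without NIL*DOG2* replicate 1 or 3 or without NIL*DOG1* replicate 1 or 3.

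In NIL*DOG6* *XTH15* and *XTH19* were lower than in NIL*DOG2*, where 1.66% of all genes were called and 0.995% as lower. *XTH15* averaged 5.94 ± 1.1 in NIL*DOG6* and 8.25 ± 0.38 in NIL*DOG2* (SD, n = 3 each), a difference of -2.31 (SE 0.48, adjusted p = 0.0206 in limma), and *XTH19* had -3.42 (SE 0.75, adjusted p = 0.0253). Without NIL*DOG6* replicate 1 the count was 6, all lower, and 6.78% of all genes were called, 4.28% as lower. *XTH19* then had -4.51 (SE 0.64, adjusted p = 0.00036) and *XTH15* -2.95 (SE 0.44, adjusted p = 0.00054), and *XTH5*, *XTH16*, *XTH4* and *XTH9* had -3.05, -1.32, -1.86 and -1.71. The same limit on leaving out replicate 1 holds here, as it had the highest values of its line in these 6 genes. The count was 0 without NIL*DOG6* replicate 2 or 3 and without NIL*DOG2* replicate 1 or 2, and 1 without NIL*DOG2* replicate 3. The 3 comparisons share the NIL*DOG2* arrays, and those of the 4 NILs share the L*er* arrays. Whether the lines differed from each other in the size of the difference was not tested.

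The median of the family lay close to that of all genes. The median difference of its 33 members was 0.02 in NIL*DOG1*, 0.05 in NIL*DOG3*, 0.03 in NIL*DOG6* and 0.03 in NIL*DOG2*, all against L*er*, beside medians over all genes of 0.02, 0.01, 0.01 and 0.00 in the same order. Outside the 6 variable genes the differences from L*er* lay between -0.60 and 0.24 in NIL*DOG1*, between -0.63 and 0.71 in NIL*DOG3*, between -0.42 and 0.59 in NIL*DOG6* and between -0.38 and 0.34 in NIL*DOG2*. The intervals of these 27 genes reached no further than -1.20 and 1.34. *XTH8* had -0.60, -0.63, -0.42 and -0.06 in the same order of lines and passed no test with all arrays. Without NIL*DOG6* replicate 1 it was called by limma's F test (adjusted p = 0.0383). It then had -0.64 in NIL*DOG6* against L*er* (adjusted p = 0.077 in limma). *XTH22*, the touch-induced gene *TCH4*, and the hydrolase genes *XTH31* and *XTH32* were not called in any comparison.

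*XTH4* (AT2G06850) and *XTH9* (AT4G03210), which have been studied together in the cambium and wood of the stem, did not pass any test with all arrays but varied with the called genes. *XTH4* gave 4.26, 4.51, 3.58, 5.70 and 4.34 in NIL*DOG1*, 4.20, 4.33 and 3.98 in NIL*DOG3*, 5.43, 4.25 and 3.85 in NIL*DOG6*, 5.78, 6.50 and 5.46 in NIL*DOG2*, and 5.89, 4.23, 5.28, 6.53 and 5.29 in L*er*. *XTH9* gave 3.35, 3.65, 2.65, 4.69 and 3.44 in NIL*DOG1*, 3.66, 3.19 and 2.98 in NIL*DOG3*, 4.77, 3.33 and 2.73 in NIL*DOG6*, 4.75, 5.23 and 4.23 in NIL*DOG2*, and 5.46, 4.18, 4.60, 6.07 and 4.43 in L*er*. The highest array of NIL*DOG1* was replicate 4 and that of NIL*DOG6* was replicate 1 for both, as for the called genes. *XTH9* was above the array lower quartile in only 15 of the 19 arrays. The adjusted p of *XTH9* was 0.053 and that of *XTH4* 0.077 in limma's F test.

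The 6 genes moved together from array to array. Over the 19 arrays the 15 pairs had Pearson correlations of 0.88 to 0.97 with a median of 0.92, and *XTH15* with *XTH19* had the closest at 0.97. After the mean of each genotype was removed they still had 0.79 to 0.95 with a median of 0.89, whereas all 528 pairs of the family had medians of -0.01 before and 0.03 after. Those 528 pairs include the 20 members below the array median in every array. One of the 20, *XTH8*, also moved with the 6 genes. It had a correlation of 0.83 with their mean, and 0.68 after the genotype means were removed. The arrays share their normalization and each point is 1 bulk of seeds, so the correlations are given as a description. The mean of the 6 genes was 4.75, 4.88, 4.04, 6.17 and 4.77 in NIL*DOG1*, 4.55, 4.10 and 4.27 in NIL*DOG3*, 6.40, 4.44 and 4.20 in NIL*DOG6*, 6.76, 7.29 and 6.61 in NIL*DOG2*, and 6.90, 5.57, 6.17, 7.31 and 6.28 in L*er*. Within NIL*DOG6* replicate 1 stood above replicates 2 and 3 by more than the means of NIL*DOG1* and L*er* differed, and it lay inside the L*er* range.

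*XTH11* (AT3G48580) and *XTH25* (AT5G57550) ran the opposite way. Over the 19 arrays *XTH11* had a correlation of -0.78 with the mean of the 6 genes and *XTH25* one of -0.63, with -0.86 and -0.70 after the genotype means were removed, and the pair had 0.87 with each other. *XTH11* gave 8.65, 8.43, 9.31, 8.44 and 8.46 in NIL*DOG1*, 8.91, 9.45 and 9.01 in NIL*DOG3*, 8.23, 9.28 and 9.52 in NIL*DOG6*, 8.93, 7.91 and 8.71 in NIL*DOG2*, and 8.02, 9.10, 8.59, 7.94 and 8.44 in L*er*. L*er* replicate 2, the lowest L*er* array of the 6 genes, was the highest L*er* array for *XTH11* and *XTH25*, and L*er* replicate 4, the highest of the 6 genes, was the lowest for both. Neither gene passed a test between genotypes: *XTH11* had a difference from L*er* of 0.71 in NIL*DOG3* with an interval of 0.07 to 1.34 and an adjusted p of 0.235 in limma.

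**Figure D4:**
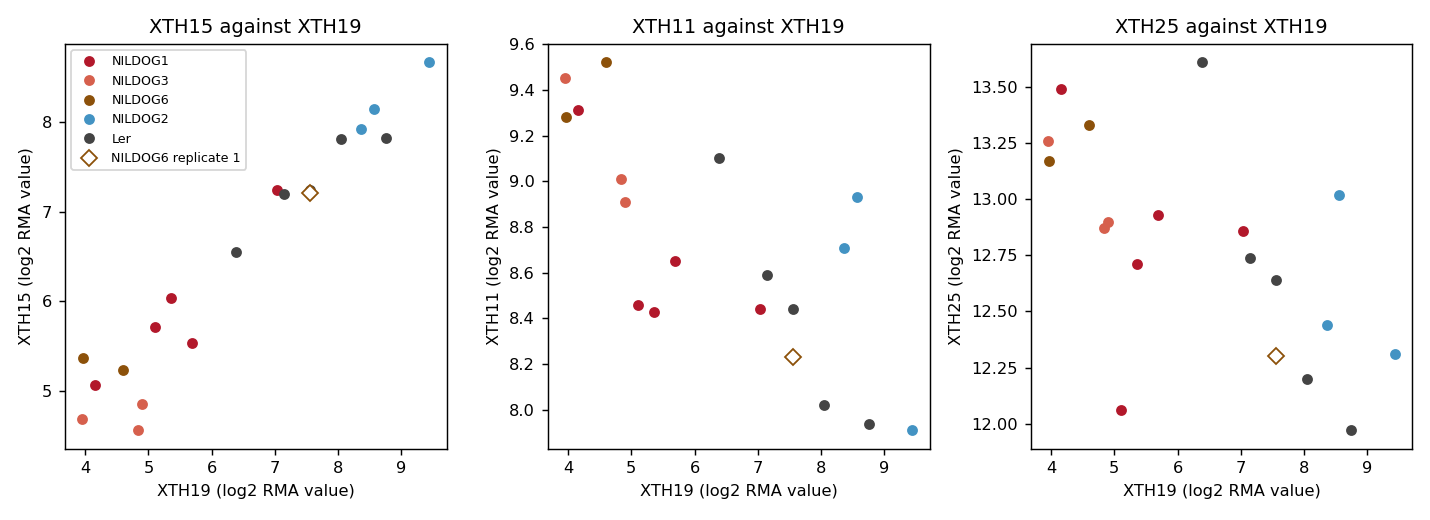
Log2 RMA value of *XTH15*, *XTH11* and *XTH25* (vertical axes) against that of *XTH19* (horizontal axes) in the 19 arrays, coloured by genotype, with NIL*DOG6* replicate 1 as an open diamond. *XTH15* rises with *XTH19* (correlation 0.97), and *XTH11* and *XTH25* fall with it (-0.76 and -0.60).

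Genes that build and trim xyloglucan, the substrate, were compared as a list of 18. Against L*er* 0 of 18 passed the test in NIL*DOG1* (1.17% of all genes called), 2 in NIL*DOG3* (2.88%) and 1 in NIL*DOG6* (2.36%), all lower, and 0 in NIL*DOG2* (0.305%). *XYL1* (AT1G68560), the alpha-xylosidase that removes xylose from xyloglucan ends, gave 7.08, 6.78, 6.06, 7.66 and 7.47 in NIL*DOG1*, 6.33, 5.50 and 5.58 in NIL*DOG3*, 7.53, 5.90 and 6.15 in NIL*DOG6*, 7.65, 8.42 and 7.57 in NIL*DOG2*, and 8.63, 7.27, 8.04, 8.25 and 8.06 in L*er*. It was lower than in L*er* by a difference of -2.25 in NIL*DOG3* (SE 0.38, adjusted p = 0.0031) and of -1.52 in NIL*DOG6* (SE 0.38, adjusted p = 0.0387). The NIL*DOG3* arrays were all below the L*er* arrays, and NIL*DOG6* replicate 1 was again within them. The NIL*DOG6* call was lost without replicate 2 or 3 of that line or L*er* replicate 1, 3 or 4.

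*AXY8* (AT4G34260), an alpha-fucosidase of xyloglucan, gave 4.10, 3.80 and 4.11 in NIL*DOG3*, against 5.28, 4.74, 4.75, 5.23 and 4.73 in L*er*, a difference of -0.94 (SE 0.23, adjusted p = 0.0301) that lost its call without any 1 NIL*DOG3* array or L*er* replicate 1 or 4. In NIL*DOG6* without replicate 1 the count was 4 of 18, while the share of all genes called was 8.39%, against 2.36% with all arrays. *XYL1*, *AXY8* and the xylosyltransferase *XXT1* (AT3G62720) were lower, at -2.02, -0.78 and -1.02, and *CSLC5*, a synthase of the glucan backbone, was higher at 0.79.

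Against NIL*DOG2* 1 of 18 passed the test in NIL*DOG1* (2.56% of all genes called), 2 in NIL*DOG3* (3.2%) and 1 in NIL*DOG6* (1.66%). *CSLC4* (AT3G28180), like *CSLC5* a synthase of the glucan backbone, was lower in NIL*DOG1* than in NIL*DOG2* at -0.86 (SE 0.17, adjusted p = 0.0086). Its value was below the array median in every array, and that of *CSLC5* was above it in every array. *CSLC4* gave 3.80, 3.07, 3.31, 3.63 and 3.70 in NIL*DOG1*, against 4.08, 4.62 and 4.38 in NIL*DOG2*. In NIL*DOG3* *XYL1* was lower at -2.08 (SE 0.42, adjusted p = 0.0079) and *XXT1* at -0.99 (SE 0.23, adjusted p = 0.0218). *XXT1* was also lower in NIL*DOG6*, at -1.06 (SE 0.23, adjusted p = 0.0258). It gave 6.73, 6.13 and 6.71 in NIL*DOG3*, 7.12, 6.26 and 5.98 in NIL*DOG6*, and 7.54, 7.73 and 7.26 in NIL*DOG2*. All 4 of these differences lost their call without NIL*DOG2* replicate 2, those of *XYL1* and *XXT1* in NIL*DOG3* also without NIL*DOG3* replicate 2, and those of *XXT1* without NIL*DOG2* replicate 1, and in NIL*DOG6* without its replicate 2 or 3. Without NIL*DOG6* replicate 1 the count in that line was 3 of 18, where 6.78% of all genes were called, with *XYL1* at -1.85, *XXT1* at -1.40 and the acetyltransferase relative *AXY4L* at -1.22.

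*XYL1*, *AXY8*, *XXT1* and the beta-galactosidase *BGAL10* had correlations of 0.91, 0.89, 0.87 and 0.85 with the mean of the 6 *XTH* genes over the 19 arrays, and *CSLC5* had -0.68. After the genotype means were removed they had 0.87, 0.86, 0.75, 0.78 and -0.76. Of the seed genes *CRA1* and the oleosin *OLEO1* then had 0.73 and -0.67 (0.18 and -0.42 before), and the others lay between -0.39 and 0.28. Such correlations were not computed over all genes, so they are not read as particular to xyloglucan genes. The other xyloglucan genes, among them the galactosyltransferase *MUR3* and the fucosyltransferase *FUT1*, passed no comparison with L*er* or NIL*DOG2*, and neither did *BGAL10*. By the F test over the 5 genotypes 3 of the 18 were called, beside 6.39% of all genes.

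**Figure D5:**
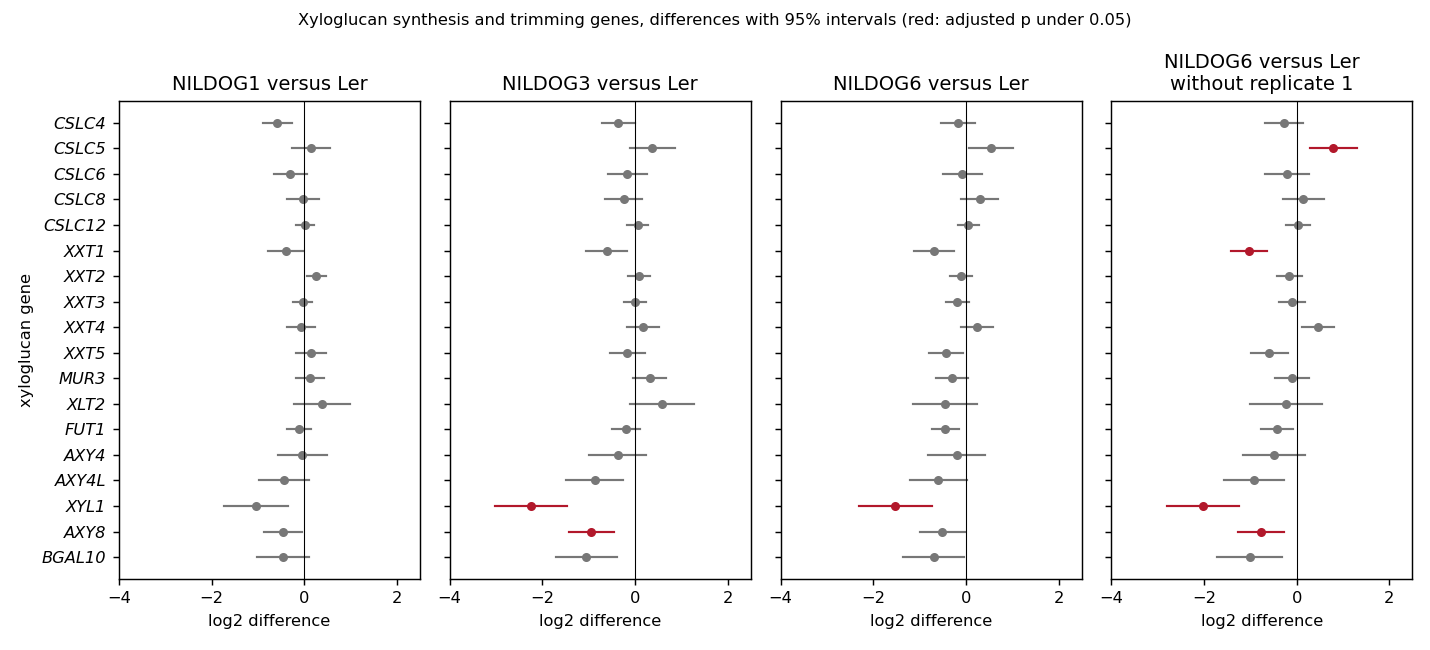
Log2 difference from L*er* of the 18 genes of xyloglucan synthesis and trimming (points) with 95% intervals (lines) in NIL*DOG1*, NIL*DOG3* and NIL*DOG6*, and in NIL*DOG6* without replicate 1; red marks an adjusted p under 0.05. *XYL1* is red at -2.25 in NIL*DOG3* and at -1.52 in NIL*DOG6*.

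The members are spread over the genome, with 5, 5, 4, 12 and 7 on chromosomes 1 to 5, and an introgressed region carries the alleles of another accession for all its genes. The 100 nearest measured genes in RefSeq order, 50 on each side, were therefore searched for calls against L*er*. In NIL*DOG1* *XTH29*, on chromosome 4, had the most, with 10 of 100 called, and *XTH20*, on chromosome 5, had 8, beside 1.17% of all genes. Whether NIL*DOG1* holds introgressed DNA at both places was not tested. In NIL*DOG3* *XTH30* had 10, beside 2.88% of all genes, and in NIL*DOG2* *XTH8* had 4, beside 0.305%. In NIL*DOG6* *XTH16* had 7, beside 2.36% of all genes, on chromosome 3 where the study draws the region of that line. Without NIL*DOG6* replicate 1 *XTH16* had 18 called neighbours and *XTH3* 19, beside 8.39% of all genes. *XTH29*, *XTH20*, *XTH30*, *XTH8* and *XTH3* themselves were not called in the line concerned. A lower transcript of *XTH16* in NIL*DOG6* and a sequence difference under its probes cannot be told apart.

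The neighbourhoods of *XTH5*, *XTH15* and *XTH19* stood differently against the share of all genes called, which was 1.17% in NIL*DOG1*, 2.88% in NIL*DOG3* and 2.36% in NIL*DOG6*. *XTH5* had 0, 2 and 1 called neighbours of 100 in these lines, below the share in each. *XTH15* had 1, 2 and 5, above the share in NIL*DOG6* with all arrays. *XTH19* had 2, 7 and 6, above the share in all 3 lines. Without NIL*DOG6* replicate 1 *XTH5*, *XTH15* and *XTH19* had 8, 7 and 12 called neighbours in that line, beside 8.39% of all genes. Only *XTH19* was then above the share. These counts were not tested.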

How the data were processed

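Seed RNA was hybridized to ATH1 GeneChips, and the authors deposited log2 values after RMA (background correction, quantile normalization, 1 value per gene). Probe annotation, RMA version and which arrays were normalized together are not given in the sources used here. Labels give 24 h of imbibition, although their extraction text names dry seeds. Of 21313 genes 21205 matched a RefSeq locus tag (TAIR10.1), used for gene order. Genotype means were fitted with limma 3.58.1 in R 4.3.3 (lmFit, eBayes, 19 arrays, no covariate or filter), with Benjamini-Hochberg adjustment over all genes and calls under 0.05, and checked on simulated data. Tables and figures used Python 3.11.15. Array number (3 or 5 a line) limits precision.

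The members and lists were chosen with earlier results of these data known. Members called in any of 7 comparisons or by the F test were named with all arrays, called xyloglucan genes with their differences, and members with the most called neighbours with that count; *XTH4*, *XTH8*, *XTH9*, *XTH11*, *XTH25* and *BGAL10* were named after their values were seen. Alternatives covered threshold, filter, scaling, prior, array weights, samples and replicate terms. Chosen after seeing the data were replicates 4 and 5 alone, and leaving out NIL*DOG6* replicate 1 with NIL*DOG1* replicate 4.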

Additional observations from a re-analysis of the deposited data

Results flagged for a closer look

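A sample far from the other 4 of its genotype was looked for in the 5 arrays of NIL*DOG1* and of L*er* by Dixon's ratio of the gap to the range, in 66 sets of 5 values. It was found in 7, where chance would give about 3.3 if the 66 sets were independent. Genes that share arrays and vary together are not, and the same search over all genes was not made, so the count is not read as a result about the family. *XTH7* was at 3.73 in NIL*DOG1* replicate 4 (others 2.98 to 3.14), *XTH20* at 3.32 (others 2.74 to 2.84) and *XTH31* at 4.08 (others 3.23 to 3.42) in the same array, which was also the highest NIL*DOG1* array of the 6 variable genes. *XTH11* was at 9.31 in NIL*DOG1* replicate 3 (others 8.43 to 8.65), the lowest NIL*DOG1* array of those 6. *XTH13* was at 3.06 in NIL*DOG1* replicate 1 (others 3.2 to 3.25), *XTH22* at 5.36 in NIL*DOG1* replicate 5 (others 3.97 to 4.33), and *XTH18* at 3.07 in L*er* replicate 4 (others 2.72 to 2.77). Of these genes *XTH7*, *XTH13*, *XTH18* and *XTH20* were below the array median in every array. Lines of 3 arrays were not examined in this way, NIL*DOG6* replicate 1 among them.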

How the results depend on the processing

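All 22 called differences of *XTH* and xyloglucan genes kept their sign under every alternative run. The counts of *XTH* calls moved more. The share of all genes called also moved, as in NIL*DOG6* against L*er* from 2.36% to 8.39% without NIL*DOG6* replicate 1. For most alternatives, and most fits above with an array left out, that share is not given. A change in a count is therefore not read as particular to the family. With array weights the count was 5 in NIL*DOG1*, 7 in NIL*DOG3* and 4 in NIL*DOG6* against L*er*, and 7 by the F test. In the 2 groups alone it was 2 for NIL*DOG1* against L*er*, 7 for NIL*DOG3* and 0 for NIL*DOG6* against NIL*DOG2*. A prior trend gave 3 in NIL*DOG1* against L*er*, and replicates 1 to 3 alone gave 2 in NIL*DOG3* against L*er*. At 0.0001, the threshold of the study, the count was 0 in every comparison and by the F test. At 0.01 it was 2 in NIL*DOG3* against L*er*, and against NIL*DOG2* 2 in NIL*DOG1* and 0 in NIL*DOG6*. Replicates 4 and 5 of NIL*DOG1* and L*er* alone gave 0.

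Without NIL*DOG6* replicate 1 and NIL*DOG1* replicate 4 the count was 5 in NIL*DOG1* and 6 in NIL*DOG6* against L*er*, 6 in NIL*DOG6* against NIL*DOG2* and 7 by the F test. Both arrays had the highest values of their line in the 6 variable genes, so more lower calls were to be foreseen without them. With each array left out in turn, the lowest and highest counts against L*er* were 1 and 6 for NIL*DOG1*, 2 and 7 for NIL*DOG3*, 0 and 5 for NIL*DOG6*, and 0 throughout for NIL*DOG2*. Against NIL*DOG2* they were 0 and 5 for NIL*DOG1*, 3 and 5 for NIL*DOG3*, and 0 and 6 for NIL*DOG6*. The F test gave 4 to 7. The highest F test count came without NIL*DOG6* replicate 1. *XTH5* in NIL*DOG1* against NIL*DOG2* lost its call in 13 of 19 such fits, and over all called differences 353 fits kept the call and 65 lost it.

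Centring each array on its median raised the median over all genes by 0.12 for NIL*DOG3* and by 0.11 for NIL*DOG6* against L*er*, and gave 1 *XTH* call in NIL*DOG6* against L*er*. As deposited 502 of all genes were called in that comparison, and with centring 816. The share of lower calls among all genes was then 46.7% in NIL*DOG3* (76.4% as deposited) and 30.6% in NIL*DOG6* (59.6%) against L*er*, and 54.3% (67.6%) and 43.1% (59.9%) against NIL*DOG2*. Quantile normalization gave 44.6% and 49.2% in NIL*DOG6* against L*er* and NIL*DOG2*. The *XTH* calls stayed lower under both. The plants stood in randomized blocks, but an array's number is not tied to a block in the sources used here. With the number as a replicate block the count was 5 in NIL*DOG1* and 2 in NIL*DOG6* against L*er*, 4 in NIL*DOG6* against NIL*DOG2* and 7 by the F test, and it changed no other count by over 1.5 times. Arrays of the same number had correlated deviations of -0.30 to 0.37 over all comparisons, so the numbers were not taken as pairs. The cause of these changes was not tested.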
